A study of Mus musculus with 6 samples.

Results

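The miR-29 family of the mouse is made from 4 hairpin genes, Mir29a, Mir29b-1, Mir29b-2 and Mir29c, which are 4 of the 1174 GENCODE miRNA hairpins against which the reads were matched. Its members were taken by name, and reads of 18 nt or more were summed by hairpin arm. They gave 7 arms with reads of 974 in all, because the 3p arms of Mir29b-1 and Mir29b-2 have the same sequence and were counted together as miR-29b-3p. The samples were cultured bone marrow monocytes (BMMs) of wild-type C57BL/6 mice, of which 3 control samples received PBS and 3 received 5 pg/ml of LPS, the endotoxin found on the surface of Gram-negative bacteria, over 4 h. As far as the labels say, all samples shared strain, genotype and culture, and the groups differed by the agent. Small RNAs were sequenced to ask which miRNAs this very low dose of LPS alters.

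A miRNA hairpin is cut by Drosha in the nucleus and by Dicer in the cytoplasm into a duplex of a 5p and a 3p strand, and usually a single strand is kept in an Argonaute protein. The seed, bases 2 to 8 from the 5′ end, sets most of the targets, so a read that starts 1 base earlier carries another seed. miR-29 is known for restraining collagens and other matrix genes as well as the de novo DNA methyltransferases, and in immune cells for targets in interferon-γ signalling. miR-29a and one copy of miR-29b lie in one cluster, and miR-29c and the other copy of miR-29b in another.

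The mature sequences, from RefSeq for build GRCm38.p6, are shown with the seed in capitals because the results turn on how alike they are and on where they begin. RefSeq held all 4 hairpins and each mature arm.
miR-29a-3p: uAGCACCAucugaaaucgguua
miR-29b-3p: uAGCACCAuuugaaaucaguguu
miR-29c-3p: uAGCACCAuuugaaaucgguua
miR-29a-5p: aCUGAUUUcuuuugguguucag
miR-29b-1-5p: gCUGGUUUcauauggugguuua
miR-29b-2-5p: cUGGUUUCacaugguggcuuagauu
miR-29c-5p: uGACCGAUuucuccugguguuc
The 3p arms share the seed AGCACCA, and the 4 5p arms have 4 different seeds. Counted from the 5′ end, miR-29c-3p differs from miR-29a-3p by the single substitution C10U. miR-29b-3p differs from miR-29c-3p by G18A, U21G and A22U and is 1 base longer.

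In GRCm38.p6 Mir29a lies at chr6:31062660-31062747 on the minus strand, where no other annotated gene overlaps it. Mir29b-1, at chr6:31063023-31063093 on the minus strand, overlaps an exon of the lincRNA Gm27019 and is separated from Mir29a by 275 bases. Mir29b-2, at chr1:195037040-195037120, and Mir29c, at chr1:195037547-195037634, lie on the plus strand with 426 bases between them. Both overlap exons of the non-coding gene A330023F24Rik on the same strand and of Cd46, a complement regulator, on the opposite strand.

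The samples held 2201520 to 17691405 reads, of which 1498849 to 10927393 matched hairpins and 5301 to 40631 matched miR-29. LPS replicate 2 stood apart: it had the most reads, yet sequences seen a single time made up 18.6% of its distinct sequences and 67.1% to 74.6% of those elsewhere. All 4 of 4 miRNAs of the myeloid and haematopoietic list (Mir223, Mir142, Mir155 and Mir21a), which is not limited to the labelled cell type, had reads in each sample. Their summed level was 158480 to 200606 RPM (reads per 1000000 hairpin reads). Most of that sum was Mir21a, at 124001 to 165686 RPM. Mir142 was at 25864 to 30826, Mir223 at 6087 to 6574 and Mir155 at 49 to 213. Of the lists for other cells, erythroid, muscle and liver markers summed to at most 1.83 RPM, while the fibroblast list, 3 of 4 with reads, summed to 7.34 to 14.2 RPM and the neural list, 1 of 2, to 0.366 to 3.47 RPM. Mir145, Mir1a, Mir206 and Mir124a were at 0. The epithelial list, 5 of 5 with reads, summed to 173 in LPS replicate 2 against 78.2 to 98.6 in the other samples. Its members disagreed. Mir200a, Mir200b and Mir200c were highest in LPS replicate 2, but Mir141 was at 23 against 15.3 to 40.3 and Mir429 at 15.9 against 13.7 to 20.7. The lymphoid miRNA Mir150 was at 49.2 in LPS replicate 2 against 14.9 to 23.2. Whether such cells had a part in the values of LPS replicate 2 was not tested. The comparisons between groups below are therefore given with and without that sample. In such bulk samples fewer cells of a type and less RNA per cell cannot be told apart.

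Taken as a whole, the family was a minor but steady share of the miRNA reads. It held 3404, 3361 and 3407 RPM in control replicates 1, 2 and 3 and 3417, 3718 and 3537 in LPS replicates 1, 2 and 3. In RPM, before TMM scaling, the groups did not overlap. Of the arms tested singly below, 1.88% also had every LPS sample above every control. The family total is not given after TMM scaling. For miR-29a-3p, the main arm, the groups overlapped both before that scaling and after it. After it the arm was at 2515 to 2892 in the controls and 2501 to 2833 with LPS. For the family total, LPS replicate 1 lay within counting error of the controls, with a 95% Wilson interval of 3353 to 3482 against 3334 to 3482 for control replicate 3. The means were 3391 ± 25.5 and 3557 ± 152 (SD, n = 3 each), a difference of 166 with a two-sided exact permutation p of 0.1 and an adjusted p of 0.747. With 3 samples against 3 no p under 0.1 can be reached. The difference was 86 RPM when LPS replicate 2 was left out.

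miR-29a-3p, the main product of the family, ranked 39 of 974 arms by mean level. It stood at 2761, 2707 and 2643 RPM in the controls and at 2750, 2519 and 2741 with LPS, and the groups overlapped. miR-29c-3p ranked 81, with 393, 389 and 479 in the controls and 410, 720 and 502 with LPS. miR-29b-3p ranked 115, with 186, 192 and 194 in the controls and 195, 252 and 203 with LPS. The order a, c, b held in all 6 samples, and the ranges of the 3 arms over the samples did not overlap. LPS replicate 2 was the lowest sample for miR-29a-3p and the highest for miR-29b-3p and miR-29c-3p.

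**Figure D1:**
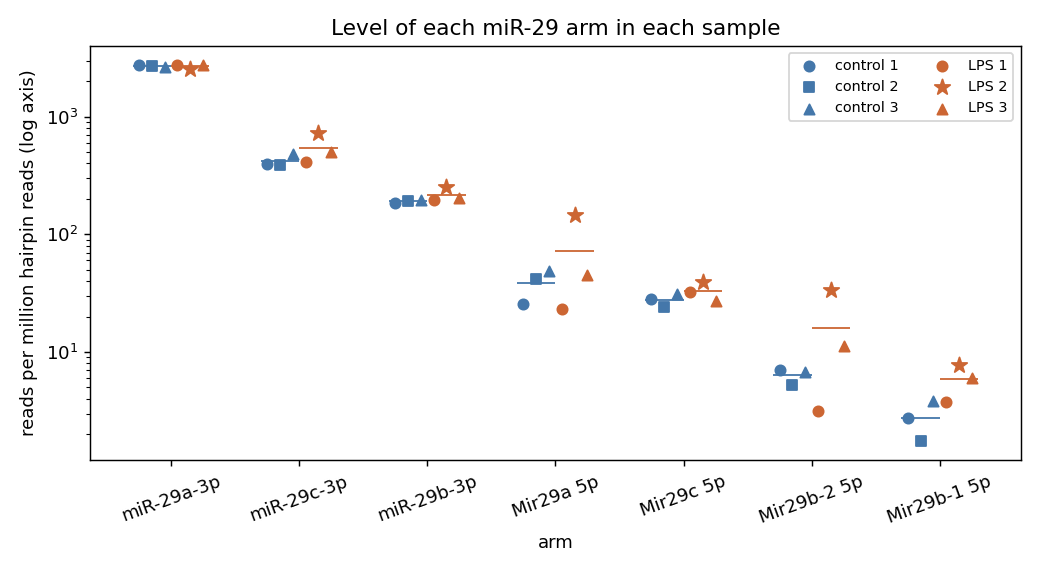
Level of each miR-29 arm in each sample, in RPM on a log axis, with controls in blue and LPS samples in orange, and a line at each group mean (n = 3). The 3 3p arms lie above every 5p arm, and LPS replicate 2, the star, is the highest LPS point for every arm but miR-29a-3p.

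The quasi-likelihood test in edgeR called no tested miR-29 arm changed with LPS. Its p-values were adjusted by Benjamini-Hochberg over the 319 arms that passed the count filter. The test called 0 arms higher and 0 lower, a background of 0% of all arms tested in either direction. Before adjustment, 7 arms were higher and 1 lower at a p under 0.05, and DESeq2 and limma-voom also called 0. Of the 7 miR-29 arms 6 were tested, and Mir29b-1-5p was below the filter. The log2 fold change, LPS over control, was -0.05 (SE 0.12) for miR-29a-3p, 0.16 (SE 0.16) for miR-29b-3p and 0.35 (SE 0.22) for miR-29c-3p, each with an adjusted p of 0.994. The 95% intervals ran from -0.33 to 0.24 for miR-29a-3p, from -0.22 to 0.54 for miR-29b-3p and from -0.17 to 0.87 for miR-29c-3p. In the same order, the log2 fold changes were -0.03, 0.01 and 0.07 without LPS replicate 2.

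In RPM, before TMM scaling, miR-29b-3p was the only one of the 6 tested arms of the family in which every LPS sample lay above every control. This held for 1.88% of the arms tested, and the reverse for 1.25%. The margin was small, 195 in LPS replicate 1 against 194 in control replicate 3, and after TMM scaling the groups overlapped, with 193 in LPS replicate 3 and 198 in control replicate 2. A list of 11 miRNA arms tied to LPS responses, of which 10 were tested, had 0 called arms. Its log2 fold changes were uneven. Mir146-5p was at 2.43, Mir146b-5p at 1.73, Mir155-5p at 0.89 and Mir132-3p at 0.68, while the others ran from -0.33 to 0.07. Mir146-5p had 605669 of 10927393 hairpin reads in LPS replicate 2. In the other samples it had 4525 to 12534 reads, of 1498849 to 3168868 hairpin reads. The median log2 fold change of the list was 0.07, beside 0.30 for the 6 tested miR-29 arms and 0.00 for all arms. The 0.30 rested on LPS replicate 2, since the medians without it were -0.09, -0.01 and -0.03.

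The 5p arms were far rarer and more uneven. Mir29a-5p was at 25.4, 42 and 49 RPM in the controls and at 23.4, 146 and 45.4 with LPS. Mir29c-5p was at 28.2, 23.9 and 30.9 in the controls and at 32.2, 39.6 and 27.4 with LPS. LPS replicate 2 was the highest sample for both, by far for Mir29a-5p, and the groups overlapped for both. Mir29b-2-5p was at 7.04, 5.25 and 6.76 in the controls and at 3.16, 33.9 and 11.3 with LPS, and Mir29b-1-5p at 2.74, 1.75 and 3.8 against 3.79, 7.78 and 6. Outside LPS replicate 2 these last arms rest on 9 to 18 and on 3 to 12 reads a sample, so that moderate differences could not be detected at this depth.

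The log2 fold change was 0.88 (SE 0.65) for Mir29a-5p, 1.37 (SE 0.78) for Mir29b-2-5p and 0.25 (SE 0.22) for Mir29c-5p, with an adjusted p of 0.994 for each in edgeR's test. Without LPS replicate 2 the first turned to -0.26 and the second to -0.05, and the last was 0.08. With all 974 arms kept in the fit, in place of the 319 past the count filter, the same value of 1.37 for Mir29b-2-5p came with an adjusted p of 0.0417, and 21 arms in all were called higher. The reads of that arm were 370 in LPS replicate 2 and 9 to 18 in the other samples.

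The a, b and c shares of the miR-29 3p reads were alike in 5 of the 6 samples. miR-29a-3p made up 82.7%, 82.3% and 79.7% of them in the controls and 82%, 72.2% and 79.5% with LPS. miR-29c-3p made up 11.8%, 11.8% and 14.5% in the controls and 12.2%, 20.6% and 14.6% with LPS. LPS replicate 2 lay outside the range of the others for both, with 95% Wilson intervals of 71.7% to 72.6% for miR-29a-3p and of 20.2% to 21% for miR-29c-3p. miR-29b-3p held 5.57% to 5.88% in the other 5 samples and 7.22% in LPS replicate 2.

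The number of miR-29a-3p reads per miR-29c-3p read was 7.02, 6.96 and 5.51 in the controls and 6.71, 3.5 and 5.46 with LPS. The ratio of miR-29a-3p to miR-29b-3p was between 13.5 and 14.8 in 5 samples and 9.99 in LPS replicate 2. The differences between group means were -3.66 percentage points for miR-29a-3p, 0.549 for miR-29b-3p and 3.11 for miR-29c-3p, with exact permutation p of 0.2, 0.4 and 0.2 and an adjusted p of 0.747 for each over 16 comparisons. These became -0.798, 0.0918 and 0.706 points without LPS replicate 2. Within each of the 3 pairs of same-numbered samples miR-29a-3p was lower and miR-29b-3p and miR-29c-3p were higher with LPS, for which the paired exact sign-flip p was 0.25, the smallest that 3 pairs allow. As shares of a common total they are not separate results. In the pairs numbered 1 and 3 the Wilson intervals overlapped for every member. For miR-29a-3p they were 78.8% to 80.6% in control replicate 3 and 78.4% to 80.6% in LPS replicate 3.

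Since miR-29a-3p and miR-29c-3p differ at 1 base, reads of one could in principle be misread copies of the other. The reference sequence of miR-29c-3p had 18.2% to 34.2% as many reads as that of miR-29a-3p. Sequences with either remaining base at position 10 of miR-29a-3p had 1 read in all 6 samples together. The other single substitutions at positions 2 to 19 reached at most 0.0646% of the miR-29a-3p reference reads, with a median of 0.00404%, so the miR-29c-3p reads were far above that level of misread bases.

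The 5p share of a hairpin, its 5p reads as a percentage of 5p plus 3p reads, differed between the members. For Mir29a it was 0.912%, 1.53% and 1.82% in the controls and 0.842%, 5.47% and 1.63% with LPS. For Mir29c it was 6.68%, 5.79% and 6.05% in the controls and 7.29%, 5.22% and 5.16% with LPS. In 5 of the 6 samples the 5p strand thus took a larger share of the Mir29c than of the Mir29a reads, with no overlap between their intervals, and in LPS replicate 2 the shares were alike. As a ratio, 53.9 to 118 reads of the Mir29a 3p strand were found per 5p read in those 5 samples and 17.3 in LPS replicate 2, against 12.7 to 18.4 for Mir29c in all 6.

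For both Mir29b hairpins together the 5p share was 4.99%, 3.52% and 5.15% in the controls and 3.44%, 14.2% and 7.88% with LPS. The differences between group means were 1.23 points for Mir29a, 3.94 for Mir29b and -0.284 for Mir29c, with exact permutation p of 0.7, 0.4 and 0.7 and an adjusted p of 0.747 each. Without LPS replicate 2 they were -0.186, 1.1 and 0.052 points. Over 55 hairpins with at least 300 reads in every sample, the share of the minor arm in LPS replicate 2 was a median of 1.08 times its mean in the other samples, with quartiles of 0.856 and 1.33. That ratio was 4.07 for Mir29a, which 2 hairpins exceeded, and 0.842 for Mir29c.

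**Figure D2:**
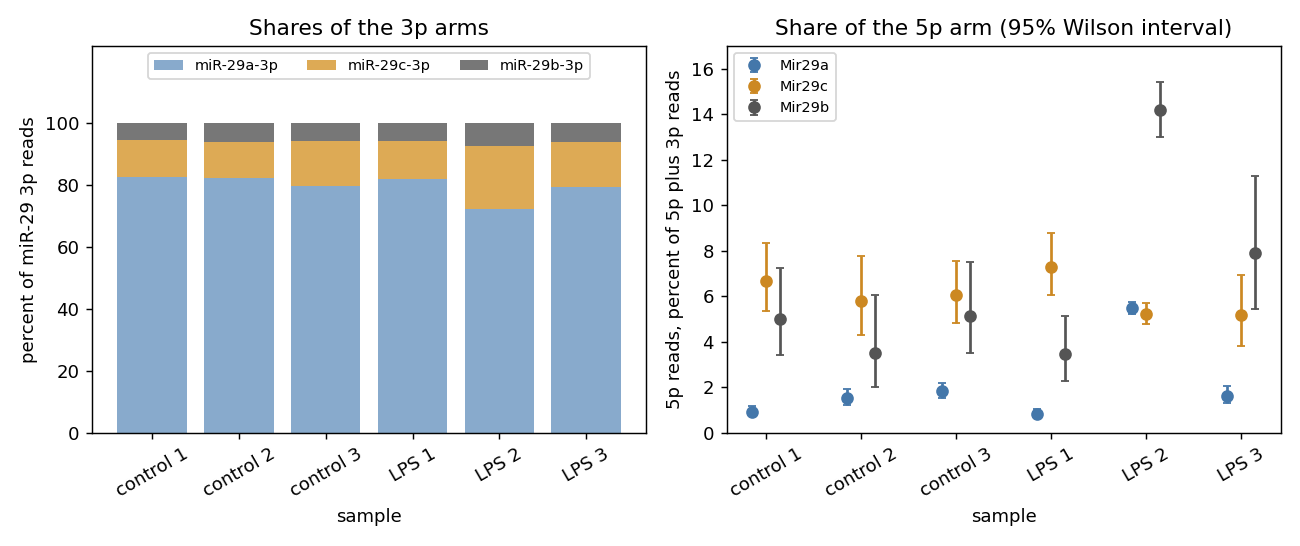
Left, the share of miR-29a-3p, miR-29c-3p and miR-29b-3p in the miR-29 3p reads of each sample, in percent. Right, 5p reads as a percentage of 5p plus 3p reads for Mir29a, Mir29c and both Mir29b hairpins together, with 95% Wilson intervals that cover counting error only; LPS replicate 2 has the lowest miR-29a-3p share (72.2%) and the highest 5p shares of Mir29a (5.47%) and Mir29b (14.2%).

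Which of the Mir29b hairpins gave the miR-29b-3p reads could not be read from that arm, since 0 to 7 reads a sample matched Mir29b-1 alone and 2 to 37 matched Mir29b-2 alone. The base that sets the Mir29b-2 reads apart is a 3′ T, which an added U would also give. The 5p arms do differ, and Mir29b-2 held 72%, 75% and 64% of the reads of both in the controls and 45.5%, 81.3% and 65.4% with LPS. The Wilson intervals ran from 26.9% to 91.1% over the samples other than LPS replicate 2, so no difference between them was detectable at this depth.

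The family members differed most plainly in where their reads begin. Reads of miR-29a-3p that start 1 base before the reference made up 15.5%, 16.4% and 15.1% in the controls and 15.4%, 13.8% and 15.7% with LPS. For miR-29b-3p they made up 9.03%, 10.3% and 13.5% in the controls and 12.6%, 12.3% and 13.5% with LPS. For miR-29c-3p they made up 0.298%, 0.3% and 0.353% in the controls and 0.616%, 0.127% and 0.664% with LPS, which is 2 to 10 reads a sample. In each sample the miR-29a-3p and miR-29b-3p shares were thus many times that of miR-29c-3p. The highest upper 95% Wilson bound for miR-29c-3p was 1.54%, and the lowest lower bound was 6.78% for miR-29b-3p and 13.4% for miR-29a-3p.

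The shifted reads take their extra base from the hairpin. For each member the hairpin sequence from that base to the reference end is shown. This is not the read itself, whose 3′ end varied as given below. Bases 2 to 8, the seed, are in capitals, because the shift replaces the family seed AGCACCA by UAGCACC.
miR-29a-3p, 1 base earlier: cUAGCACCaucugaaaucgguua
miR-29b-3p, 1 base earlier: cUAGCACCauuugaaaucaguguu
miR-29c-3p, 1 base earlier: cUAGCACCauuugaaaucgguua
All 4 hairpins have a C at that place. The 3 bases before the reference start are UUC in Mir29a, AUC in Mir29b-2 and GUC in both Mir29b-1 and Mir29c, so that Mir29b-1 and Mir29c are alike there.

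The shifted reads of miR-29a-3p and miR-29b-3p were not only longer at the 5′ end but also shorter at the 3′ end. Among shifted miR-29a-3p reads, 50.1% to 54.7% ended 1 nt before the reference end without unmatched bases, against 25.2% to 29% of the reads with the reference start. Shifted miR-29b-3p reads ended at the reference in 0% to 5.13%, against 73.8% to 89.8% of reads with the reference start. Their mean length was 22 to 22.4 nt, below the 22.8 to 23 nt of miR-29b-3p reads with the reference start. For miR-29a-3p the mean lengths were 22.3 to 22.4 nt and 21.8 nt.

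Across 148 arms with at least 100 reads in every sample, the median share of reads away from the leading start was 1.32%. It was 15.7% for miR-29a-3p, which 25 arms exceeded, 12.9% for miR-29b-3p, which 28 exceeded, and 2.29% for miR-29c-3p, which 64 exceeded. With 3 samples against 3 no exact permutation p under 0.1 can be reached, so this test could not detect a difference with LPS at the 5′ end. The share of reads with the reference 5′ end differed between group means by 0.698 points for miR-29a-3p, -1.59 for miR-29b-3p and -0.24 for miR-29c-3p. The exact permutation p was 0.6, 0.4 and 0.6, with an adjusted p of 0.747 each. Leaving out LPS replicate 2 gave differences of -0.0251, -1.6 and -0.586 points.

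The 5p strand of Mir29c began elsewhere than in RefSeq. Reads that start 2 bases downstream of the RefSeq start made up 75%, 75.6% and 80.8% in the controls and 78.4%, 86.6% and 82.9% with LPS, and reads at the RefSeq start 11.8% to 19.5%. Mir29a-5p kept its RefSeq start in 98.8% to 100% of reads. The strands are set side by side because the start that leads among the Mir29c-5p reads lines up with that of Mir29a-5p and gives the seed CCGAUUU in place of GACCGAU.
Mir29a-5p: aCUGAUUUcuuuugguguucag
Mir29c-5p from its leading start: aCCGAUUUcuccugguguucag
From that start Mir29c-5p differs from Mir29a-5p by U3C, U11C and U12C. The Mir29c-5p read with the highest mean share, 23 nt long, held 27.5% to 54.5% of its reads and ended 3 nt after the RefSeq end.

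**Figure D3:**
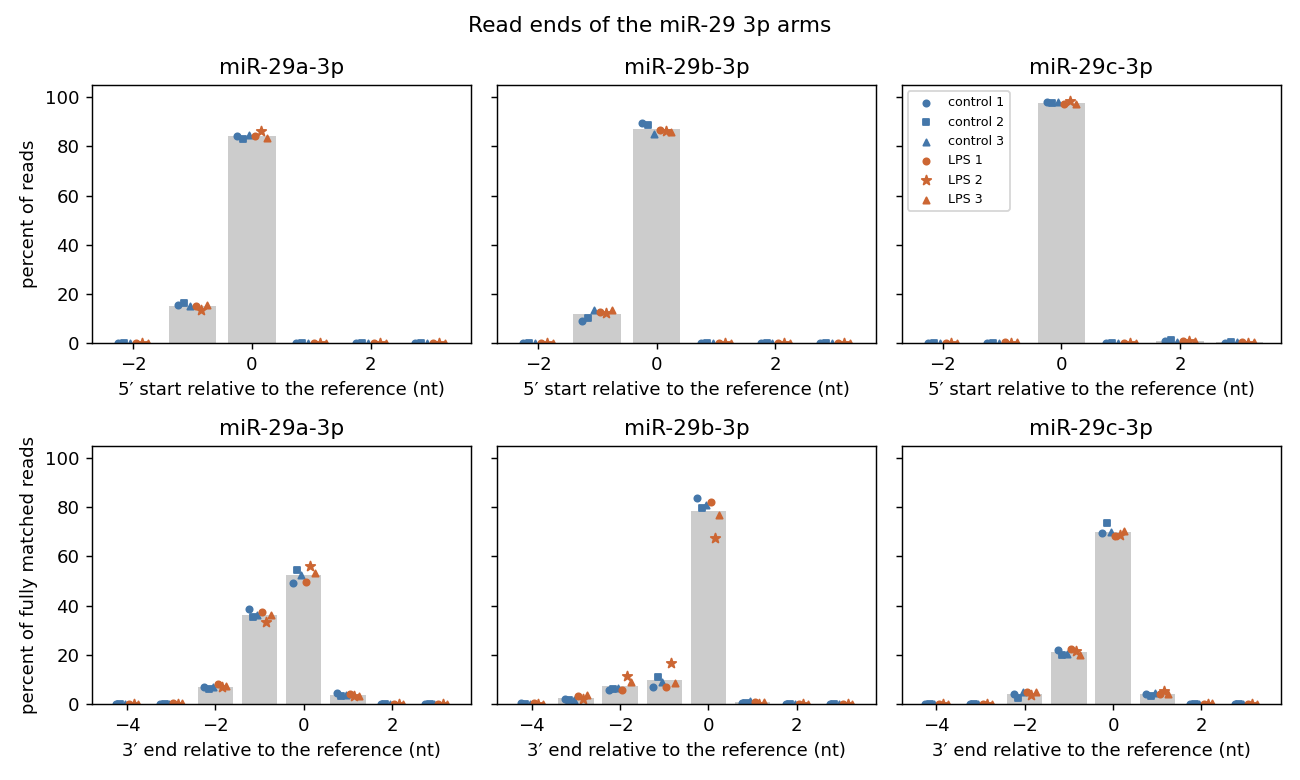
Start (top) and end (bottom) of the reads of each miR-29 3p arm relative to the RefSeq mature sequence, in nt, as a percentage of reads and of fully matched reads. Grey bars are means of the 6 samples and symbols are single samples; starts at -1 hold 13.8% to 16.4% of miR-29a-3p reads, 9.03% to 13.5% of miR-29b-3p reads and 0.127% to 0.664% of miR-29c-3p reads.

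At the 3′ end, fully matched miR-29a-3p reads were the most spread of the 3p arms. They ended at the reference in 49.2% to 56.1%, 1 nt before it in 33.2% to 38.7% and 2 nt before it in 6.09% to 8.27%. Fully matched miR-29c-3p reads ended at the reference in 68.2% to 73.8% and 1 nt before it in 19.8% to 22.6%. The sample ranges of these members did not overlap at the reference end. miR-29b-3p reads ended at the reference in 76.8% to 83.8% in 5 samples and in 67.5% in LPS replicate 2, where 16.9% ended 1 nt before it against 6.91% to 11.2% in the others.

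Some of the 5 leading read sequences of each 3p arm are shown as the files give them, with T for U and with bases that do not match the hairpin in capitals, to set the reference beside the shifted, shortened and tailed forms.
miR-29a-3p, reference: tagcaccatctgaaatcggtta
miR-29a-3p, end 1 nt shorter: tagcaccatctgaaatcggtt
miR-29a-3p, start 1 nt earlier and end 1 nt shorter: ctagcaccatctgaaatcggtt
miR-29b-3p, reference: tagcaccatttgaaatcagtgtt
miR-29b-3p, end 1 nt shorter: tagcaccatttgaaatcagtgt
miR-29b-3p, start 1 nt earlier and end 2 nt shorter: ctagcaccatttgaaatcagtg
miR-29c-3p, reference: tagcaccatttgaaatcggtta
miR-29c-3p, end 1 nt shorter: tagcaccatttgaaatcggtt
miR-29c-3p, added A: tagcaccatttgaaatcggttaA
The 5 leading sequences of each arm held a mean of 81% of the reads of miR-29a-3p, 92.4% of those of miR-29b-3p and 84.8% of those of miR-29c-3p, which had 150, 49 and 98 distinct sequences. The reference sequence held 38.3%, 42.3% and 41.2% of miR-29a-3p reads in the controls and 38.4%, 45.4% and 40.5% with LPS. It held 80.5%, 77.5% and 76.5% of miR-29b-3p reads in the controls and 77.8%, 63.7% and 75% with LPS. Among miR-29c-3p reads the reference held 49.8% to 54.4% and the form with an added A 9.47% to 11.3%.

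Of the 44 miR-29 sequences among the 2204 tested by edgeR's quasi-likelihood test, 0 were called, as was the case for 0% of all sequences in either direction, and DESeq2 also called 0. Before adjustment, 1 of the 44 was higher and 1 lower at a p under 0.05, beside 53 higher and 8 lower of the 2204. The median log2 fold change was 0.20 for the 44 sequences, 29 above 0 and 15 below, and 0.00 for all. It was 0.00 for the 43 that could be fitted without LPS replicate 2, and -0.01 for all. The reference sequences had log2 fold changes of 0.02 (SE 0.15) for miR-29a-3p, 0.07 (SE 0.16) for miR-29b-3p and 0.41 (SE 0.28) for miR-29c-3p, each with an adjusted p of 0.999. Leaving out LPS replicate 2 made these -0.07, -0.02 and 0.03, and the miR-29c-3p reference stood at 422 TMM-scaled RPM in that sample against 201 to 244 in the others. The miR-29b-3p form that is 1 nt shorter at the 3′ end stood at 37.9 TMM-scaled RPM in LPS replicate 2 against 7.69 to 14.5 in the other samples. Its log2 fold change of 0.99 (SE 0.59) became 0.00 without that sample.

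Bases at the 3′ end that do not match the hairpin, up to 3 of which were allowed, also set the members apart. Such tails were on 15%, 13.6% and 13.9% of miR-29a-3p reads in the controls and on 15.4%, 12.3% and 14.9% with LPS. They were on 25.9%, 26.7% and 24.3% of miR-29c-3p reads in the controls and on 26.7%, 20.6% and 24.8% with LPS. miR-29b-3p had them on 2.3% to 5.26% of reads, and all other arms together on 10.4% to 11.9%. The ranges of the 3 members did not overlap, with miR-29c-3p highest in every sample and miR-29b-3p lowest. The hairpins of Mir29a and Mir29c continue with a U after the reference end, as does that of Mir29b-2, so that an added U there counts as a match and these shares leave it out. They also leave out an A added to a miR-29a-3p or miR-29c-3p read that ends 1 nt before the reference end, since the reference ends in A. Of fully matched reads, 33.2% to 38.7% of miR-29a-3p and 19.8% to 22.6% of miR-29c-3p ended there.

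The difference between group means was 0.00835 points for miR-29a-3p, 0.558 for miR-29b-3p and -1.64 for miR-29c-3p, with exact permutation p of 1, 0.7 and 0.6 and adjusted p of 1, 0.747 and 0.747. Without LPS replicate 2 these were 0.953, -0.139 and 0.0887 points. Mean read length differed by -0.0104, -0.0673 and -0.0436 nt, with exact permutation p of 0.6, 0.4 and 0.2 and an adjusted p of 0.747 each, and by -0.0155, -0.0197 and -0.0393 nt when LPS replicate 2 was left out.

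The counted base of single-base tails differed between members. An added U can count as a match on these members, so their shares are not directly comparable with those of all other arms. Of single-base tails on miR-29c-3p, 58.8% to 66.3% were A. On miR-29a-3p, 32.7% to 40.2% were A, 28.7% to 35.7% were G and 22.1% to 27.3% were U, while on all other arms 52.1% to 64.7% were U, 28.5% to 35.9% A and 1.99% to 4.63% G. The G over A ratio does not depend on the uncounted U, but an uncounted A can raise it. It was 0.714 to 1.09 on miR-29a-3p, 0.15 to 0.225 on miR-29c-3p and 0.0699 to 0.134 on all other arms. It rests on 140 to 920 reads with a G tail a sample on miR-29a-3p. On miR-29b-3p G also made up a mean of 29.6% of single-base tails, and the ratio ran from 0 to 1.37, but it rests on 0 to 5 G-tailed reads a sample outside LPS replicate 2, which had 59. Among 98 arms with at least 50 single-base tails in every sample the median share of G was 1.57%. Of these, 1 arm exceeded the 31.7% of miR-29a-3p and 9 exceeded the 12.5% of miR-29c-3p. These ratios were computed after the tails had been seen and were not tested.

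**Figure D4:**
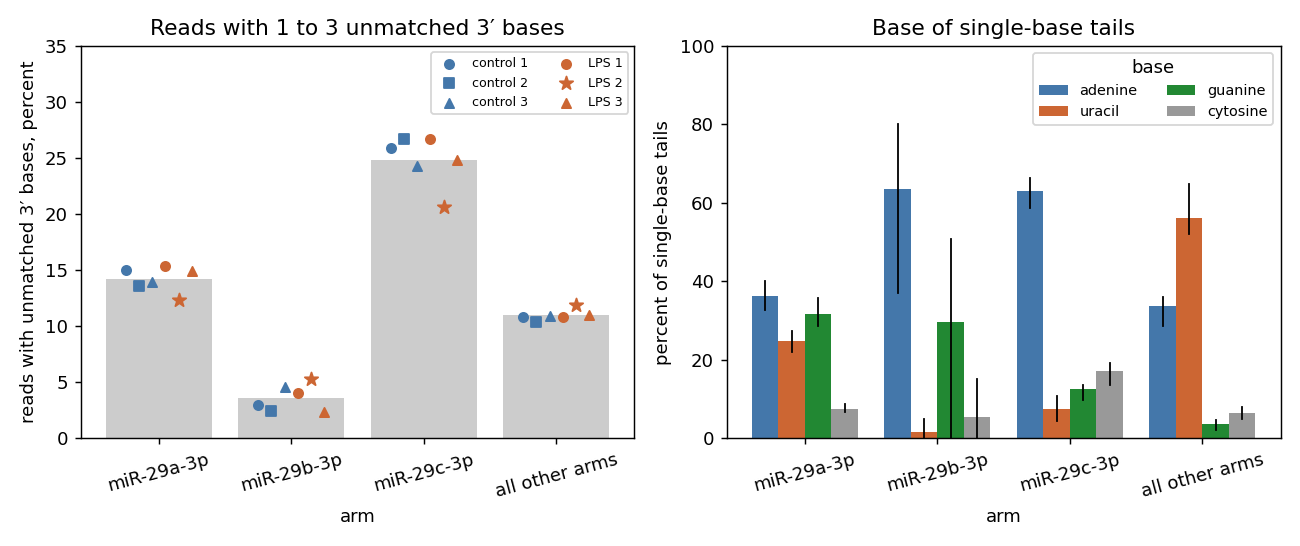
Left, reads with 1 to 3 unmatched 3′ bases as a percentage of the reads of each miR-29 3p arm and of all other arms together, with bars at the mean of 6 samples and a symbol for each sample. Right, the base of single-base tails as a percentage of such tails, with bars at the mean of 6 samples and lines from the lowest to the highest sample. G (guanine) makes up 28.7% to 35.7% on miR-29a-3p against 1.99% to 4.63% on all other arms. A U added at the reference end of miR-29a-3p is not counted.

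Among 140 arms with a mean of at least 100 RPM, those whose log2 level followed each member most closely over the 6 samples are given as a description. For miR-29a-3p they were Mir22-3p (Pearson r 0.975), Mir3107/Mir486-5p (0.964), Mir192-5p (0.962), Mir186-5p (0.939) and Mir210-5p (0.935). For miR-29c-3p they were Mir140-3p (0.992), Mir142-3p (0.988), Mir339-3p (0.987), Mir152-3p (0.983) and Mir30b-5p (0.983), and without LPS replicate 2 these ranged from 0.806 to 0.922. For miR-29b-3p they were Mir146-5p (0.989), Mir24-1/Mir24-2-3p (0.942), Mir24-2-5p (0.937), Mir652-3p (0.927) and Mir324-5p (0.927), which without LPS replicate 2 were 0.827, -0.812, 0.454, 0.294 and -0.548, so that all but the first rested on that sample. All points share their libraries and scaling. Between the members, r over 6 samples and over the 5 without LPS replicate 2 was -0.349 and 0.836 for miR-29a-3p with miR-29b-3p, -0.735 and -0.825 for miR-29a-3p with miR-29c-3p, and 0.870 and -0.618 for miR-29b-3p with miR-29c-3p, so that LPS replicate 2 set the sign for both pairs with miR-29b-3p.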

How the data were processed

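The authors extracted small RNA with a miRNeasy kit, built TruSeq small RNA libraries, sequenced them on an Illumina HiSeq instrument, and removed adaptors by perl scripts together with Btrim64. Their miRNA quantification, by mirAnalyzer, was not analysed here. The deposited files hold, per sample, raw counts of each distinct trimmed read of 11 to 40 nt, without names, coordinates or normalization. The labels name build mm9, while hairpins here came from GENCODE M21 (GRCm38) and were identical to the RefSeq hairpins. The labels give DMEM and the methods RPMI as medium, and the 4 h and PBS come from the methods. Samples were grouped by their titles.

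Exact matches to hairpins were sought for reads no shorter than 18 nt, with up to 3 unmatched 3′ bases. The arm was set by the hairpin midpoint, arms sharing at least 50% of reads were merged, and 0 miR-29 reads matched several arms equally. Counts were filtered with filterByExpr, TMM-scaled and tested with edgeR 4.0.16 (quasi-likelihood, R 4.3.3), at a Benjamini-Hochberg adjusted p under 0.05. Shares were compared by two-sided exact permutation tests over samples (scipy 1.17.1), adjusted over 16 comparisons. Alternatives were DESeq2 1.42.0 and its size factors, limma-voom (limma 3.58.1), library totals, other filters, exact matches, reads of 20 nt or more, no reads seen once, a replicate block and each sample left out. Scripts were tested on simulated data.

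The labels do not state a pairing, and the main tests used none. Same-numbered samples were treated as pairs only in the replicate block and the sign flips. Their deviations correlated at 0.595, 0.259 and 0.277, against -0.387 to 0.154 for other pairs. These correlations come from the same data and cannot settle the pairing. Deviations from a group mean cancel out within the group, so that positive correlations force negative ones elsewhere. The labels do not say whether samples are separate cultures, so p-values measure only the spread between them, which may be technical. Reads carry no molecular identifiers, so intervals cover counting error only, and the 2201520 to 17691405 reads per sample leave rare 5p arms least precise. Adaptor ligation favours some read ends, so levels of different sequences need not match their amounts in the cells. The text names all miR-29 arms, the 5 leading sequences of each 3p arm as counts with examples, and the 5 arms most like each in level. The members and lists were chosen with earlier results of these data known.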

Additional observations from a re-analysis of the deposited data

Results flagged for a closer look

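Reads of 15 to 17 nt lie below the length limit of the comparisons and were looked at apart. Those that matched miR-29a-3p had a mean of 18.7 RPM in the LPS samples, above the controls. The values were 13.3, 15.8 and 16.1 in the controls and 22.7, 16.7 and 16.7 with LPS, from 25 to 182 reads a sample, and the difference was not tested. Short reads of miR-29b-3p were at 13.8 in LPS replicate 2 and at 7.34 to 8.84 in the other samples.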

How the results depend on the processing

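Of 455 values recomputed under alternatives, 432 kept their direction and their side of the threshold. A further 21 changed sign or became 0.00 after rounding, 1 count moved and 1 value passed the threshold. The share comparisons could not cross the threshold, since with 3 samples against 3 the exact permutation p cannot go below 0.1. The values that moved or passed came from dropping the count filter, which gave 21 arms higher with LPS in place of 0 and an adjusted p of 0.0417 for Mir29b-2-5p in edgeR's test, at a log2 fold change of 1.37 in both fits. All changes of sign or to 0.00 came from leaving out 1 sample. Over those fits the log2 fold change ran from -0.10 to 0.02 for miR-29a-3p, from -0.26 to 1.30 for Mir29a-5p and from -0.05 to 1.86 for Mir29b-2-5p. Among read sequences it ran from -0.07 to 0.07 and from -0.16 to 0.06 for the miR-29a-3p reference and its form 1 nt earlier, from -0.02 to 0.13 and from 0.00 to 1.29 for the miR-29b-3p reference and its form 1 nt shorter, and from 0.00 to 0.42 and from 0.00 to 0.83 for the miR-29c-3p forms longer by A and by U. The 5p share, LPS minus control, ran from -0.186 to 2.13 points for Mir29a and from -0.982 to 0.0789 for Mir29c. The share with the reference start ran from -0.0251 to 1.2 points for miR-29a-3p. The share with tails ran from -0.579 to 0.953 points for miR-29a-3p, from -0.139 to 1.34 for miR-29b-3p and from -2.95 to 0.0887 for miR-29c-3p. The cause was not tested. The replicate block, which assumes that same-numbered samples are pairs, changed no call. It gave -0.05 for miR-29a-3p, 0.15 for miR-29b-3p and 0.31 for miR-29c-3p, and lowered Mir29a-5p to 0.51 and Mir29b-2-5p to 0.88. Paired sign flips of 3 cannot go below an exact p of 0.25. Depth limits the 5p arms of Mir29b, with 3 to 18 reads a sample outside LPS replicate 2.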
